A study of Homo sapiens with 39 samples.

Results

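The 10 genes described here are CDKN1A, MDM2, GDF15, SESN1, TP53I3, BBC3, BAX, FAS, ZMAT3 and RRM2B, which are transcribed in response to the tumour suppressor p53. They were chosen by name as well-known p53 target genes. The choice applied no threshold to measured values, but it was made with earlier results of these data known. All 10 were present among the 21530 gene symbols of the polysome table and among the 26334 symbols of the RNA immunoprecipitation (RIP) tables, and all 10 passed the filter on low counts in both. In the 3 lists of U2AF1 contact sites, 8 of the 10 had at least 1 site for WT protein in cytoplasm, 4 for S34F protein in cytoplasm and 5 for WT protein on chromatin.

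As background, p53 is a transcription factor that is stabilised after DNA damage and other stresses and then switches on genes that stop the cell cycle, repair DNA, limit metabolism or kill the cell. MDM2 is both a target and a brake, since the MDM2 protein is a ubiquitin ligase that sends p53 to the proteasome. U2AF1 is the subunit of the U2 auxiliary factor that reads the AG at the end of an intron, and S34F is a recurrent cancer mutation in its first zinc finger that changes which base before that AG is preferred.

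The study's title asks about a role of U2AF1 in translation. Human bronchial epithelial cells (HBEC) of 3 lines were used, labelled U2AF1 WT, S34F and Frame Shift (FS). The labels name no further treatment and state neither if a line is 1 clone nor on which allele the frame shift lies. Polysome gradients, which sort mRNAs by the number of ribosomes they carry, gave 8 libraries per line, from monosomes, from each of the fractions with 2 to 7 ribosomes and from a pooled fraction with 8 to 10. RIP gave 1 library per line of RNA precipitated with U2AF1 (IP), 1 of control immunoglobulin precipitate (IgG) and 1 of cytosolic RNA (Cytosol). Contact sites came from PAR-CLIP, in which a crosslinked protein leaves T-to-C conversions in the reads, carried out with FLAG-HA tagged WT or S34F U2AF1 in the Flp-In-293 line, which derives from HEK 293. HEK 293 cells carry adenovirus E1 genes, whose products bind p53, and p53 activity was not measured in either cell type here.

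Polysome libraries held 2440145 to 13367574 counts and RIP libraries 2582141 to 29769968. U2AF1 mRNA was lowest in S34F in Cytosol, at 53.9 CPM (a gene's count scaled to a fixed library total) in WT, 21.4 in S34F and 54.7 in FS. The summed level of 8 markers of basal airway epithelium ran from 7446 to 17466 CPM over the polysome libraries, while 4 fibroblast markers reached at most 17.8 CPM, 4 of ciliated and secretory cells 43.3 CPM and 4 of blood and endothelium 42.5 CPM. No 2 libraries were identical. Every comparison between lines rests on 1 library per line and kind and has no replicate check, and the comparisons between fractions or precipitates use the 3 lines as replicates.

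CDKN1A was by far the most abundant of the 10 mRNAs in Cytosol when levels were scaled to gene length (the deposited RPKM values). CDKN1A encodes p21, the inhibitor of cyclin-dependent kinases that holds cells before DNA replication. It stood at 140.3 RPKM in WT, 262 in S34F and 173 in FS, above at least 99.3% of symbols in each line. BAX, the pore-forming apoptosis protein, followed at 18.6, 25.6 and 32.3 RPKM in the same order of lines. GDF15, a secreted stress cytokine, stood at 9.91, 12.2 and 25 RPKM, and TP53I3, a quinone oxidoreductase, at 6.65, 8.82 and 9.58 RPKM. MDM2 reached 5.62, 4.75 and 5.95 RPKM, and BBC3, the BH3-only apoptosis protein PUMA, 2.54, 3.26 and 3.41 RPKM. SESN1 (a sestrin that restrains mTORC1), FAS (the death receptor), ZMAT3 (a zinc-finger RNA-binding protein) and RRM2B (the p53-induced small subunit of ribonucleotide reductase) were lowest, between 0.16 and 1.43 RPKM. The first 6 kept this order in all 3 lines. The last 4 did not. RRM2B led them in WT, at 0.379 RPKM, and SESN1 in S34F and FS, at 1.43 and 0.96 RPKM, and with 1 library per line neighbours in the order cannot be separated.

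Along the gradient the 10 mRNAs did not share one shape. CDKN1A was lowest in the 2-ribosome fraction and peaked at 6 or 7 ribosomes in all 3 lines, MDM2 was lowest at 5 or 7 ribosomes, SESN1 and TP53I3 were highest in the 8-10 fraction in 3 of 3 lines, and GDF15 and RRM2B in 2 of 3. Counts are scaled to the same total in each fraction, so a profile shows the share of a fraction's mRNA and not how much of the gene's mRNA is in it.

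**Figure D1:**
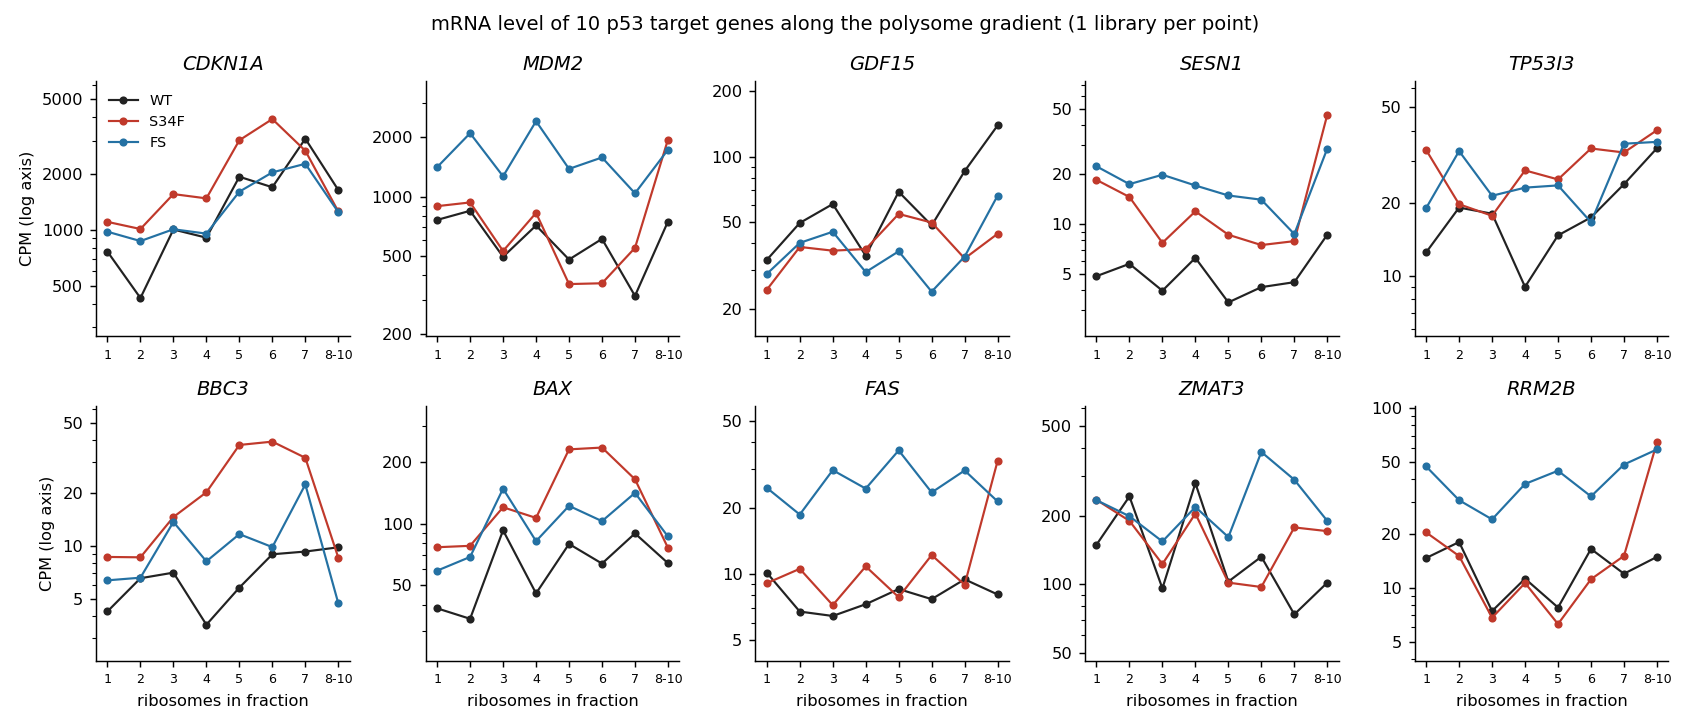
Level of each of the 10 mRNAs in CPM (log axis) in the monosome fraction (1) and the fractions with 2 to 7 and 8-10 ribosomes, for the WT, S34F and FS lines, with 1 library per point. CDKN1A peaks at 6 or 7 ribosomes in each line, and in S34F the 8-10 point of MDM2, SESN1, FAS and RRM2B stands above its other fractions.

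CDKN1A mRNA rose between the light and the heavy polysomes. In the 6 libraries with 2 or 3 ribosomes its level was 429.7 CPM at the lowest, 1004 at the median and 1552 at the highest, and in the 6 libraries with 6 or 7 ribosomes it was 1689, 2454 and 3922 CPM. The groups did not overlap. For how many of all genes this holds was not counted, here or in the comparisons below. The log2 difference was 1.57 ± 0.28 (SE, edgeR's quasi-likelihood test with Benjamini-Hochberg adjustment over 15945 genes, adjusted p = 1.9e-04), and it was above 0 in 3 of 3 lines. It passed the threshold under each of the 9 alternatives, with values of 1.32 to 1.76 and adjusted p from 1.9e-08 to 0.00606. In the 8-10 fraction the level came back to 1632, 1252 and 1242 CPM in WT, S34F and FS, against 762, 1101 and 975 CPM in monosomes. These groups did not overlap either, but the difference did not pass (0.76 ± 0.40, edgeR, adjusted p = 0.111). It passed with no filter on low counts (0.97) and without the S34F 8-10 library (1.02) and came to 0.34 without the WT line, and its alternatives had adjusted p from 0.0301 to 0.505.

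The apoptosis genes BBC3 and BAX also rose from light to heavy polysomes. BBC3 stood at 6.56, 7.84 and 14.6 CPM (lowest, median, highest) with 2 or 3 ribosomes and at 8.97, 16.1 and 39.1 CPM with 6 or 7. The difference was 1.06 ± 0.34 (edgeR, adjusted p = 0.0193), and the groups overlapped. BAX stood at 34.3, 85.3 and 148 CPM and at 63.8, 122 and 235 CPM, a difference of 0.69 ± 0.25 (edgeR, adjusted p = 0.0383), again with overlap. The S34F line carried much of both differences. Its 2 heavy libraries held 39.1 and 31.7 CPM of BBC3, above every library of the other lines, and without this line BBC3 came to 0.52 and BAX to 0.31, neither past the threshold. BAX also missed it without the WT line, at 0.69, and with the compared fractions alone in the fit, at 0.64. Over all alternatives adjusted p ran from 0.0138 to 0.272 for BBC3 and from 0.0246 to 0.358 for BAX. Without the line as a block both missed it, at 1.29 and 0.78. In the 8-10 fraction BBC3 fell back to 8.59 CPM in S34F and 4.73 in FS, near their monosome values of 8.66 and 6.38, while WT went from 4.25 to 9.82 CPM. FAS, the other death gene of the set, stood at 6.43, 8.89 and 29.8 CPM in light and 7.68, 10.8 and 29.7 CPM in heavy polysomes and did not pass (0.36 ± 0.26, adjusted p = 0.302).

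Of the 10 genes, 3 were thus called higher with 6-7 than with 2-3 ribosomes and 0 lower. Of all genes tested, 20.8% were called higher and 12.8% lower. The median difference of the 10 was 0.37, against -0.04 over all genes. MDM2 stood at -0.41 ± 0.22 (adjusted p = 0.158), below 0 in 3 of 3 lines. It was called lower by DESeq2 and without the S34F 8-10 library, at -0.49 and -0.46, and adjusted p over its alternatives ran from 0.0455 to 0.462. GDF15 (0.11), SESN1 (-0.37), TP53I3 (0.38), ZMAT3 (0.17) and RRM2B (0.50) did not pass.

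In the heaviest fraction, compared with monosomes, the called members were others. CDKN1A (0.76), BAX (0.64) and BBC3 (0.59) were above 0 there too, without a call. Whether the called members differed from them was not tested. GDF15 rose from monosome levels of 33.5, 24.4 and 28.9 CPM (WT, S34F, FS) to 139, 44.2 and 66.3 CPM with 8-10 ribosomes. Every heavy library was above every monosome library. The difference was 1.61 ± 0.41 (edgeR, adjusted p = 0.00244), and it fell to 1.14 and out of the call without the WT line, where the increase was steepest. TP53I3 rose from 12.5, 33.2 and 19.1 to 33.8, 40.1 and 35.9 CPM, also without overlap (1.01 ± 0.36, adjusted p = 0.0240). Its call was lost without the WT line, at 0.60, without the FS line, at 0.99, and without the block, at 0.91. Adjusted p over the alternatives ran from 2.3e-04 to 0.0577 for GDF15 and from 0.00557 to 0.252 for TP53I3.

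SESN1 and RRM2B were called higher as well, and here 1 library weighed heavily. SESN1 went from 4.83, 18.5 and 22.4 to 8.62, 46.0 and 28.7 CPM in WT, S34F and FS (0.99 ± 0.31, edgeR, adjusted p = 0.0113). RRM2B went from 14.6, 20.3 and 47.3 to 14.8, 64.4 and 58.8 CPM (0.94 ± 0.34, adjusted p = 0.0253). Groups overlapped for both genes, and WT hardly moved for RRM2B. Without the S34F 8-10 library, an alternative added after the data were seen, SESN1 came to 0.61 and RRM2B to 0.24, and neither passed. Both calls were also lost without the S34F line (0.86 and 0.46) and without the block (0.97 and 0.85), that of SESN1 without the WT line (0.91), and that of RRM2B with only the compared fractions in the fit (0.73). Adjusted p over these alternatives ran from 0.00384 to 0.228 for SESN1 and from 0.00777 to 0.527 for RRM2B.

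That library also held high levels of other members. In S34F, MDM2 went from 549 CPM at 7 ribosomes to 1951 CPM at 8-10, SESN1 from 7.88 to 46.0, FAS from 8.93 to 32.9 and RRM2B from 15.0 to 64.4 CPM. CDKN1A, BAX and BBC3 went the other way in the same pair of libraries, from 2652 to 1252, from 164 to 76.1 and from 31.7 to 8.59 CPM. On log2(CPM + 1) the 4 increases were 1.83, 2.41, 1.77 and 2.03 in S34F. In WT they were 1.25, 0.82, -0.21 and 0.29, and in FS 0.73, 1.61, -0.45 and 0.27. Long mRNAs were higher in the 8-10 fraction than at 7 ribosomes in WT and S34F. The median over 3892 genes of at least 5000 bases was 0.59 in WT, 0.24 in S34F and -0.07 in FS, against -0.08, -0.43 and -0.35 over 3698 genes under 2000 bases. Against monosomes the order was the reverse. There the 8-10 medians in WT, S34F and FS were -0.36, -0.16 and -0.33 over the long genes. Over the short genes they were 0.23, 0.31 and 0.19. MDM2 (7565 bases) and RRM2B (5200) are long by this measure, and SESN1 (3631) and FAS (2689) are not. GDF15 (1200) and TP53I3 (1954), called higher than in monosomes, are short. The part of length in these values was not tested.

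In all, 4 of the 10 were called higher and 0 lower in the 8-10 fraction than in monosomes. Over all genes 28.3% were called higher and 21.6% lower. The median of the 10 was 0.71 against 0.08 over all genes, and 9 of 10 were above 0 against 51.6% of all genes. In this tally FAS and BBC3 were each above 0 in 1 of 3 lines. Without the S34F 8-10 library FAS came to -0.001 and MDM2 to 0.20, and without the WT line BBC3 came to -0.18. TMM scaling in the fit adds 0.15 to the median gene relative to plain CPM in this comparison. MDM2 (0.64 ± 0.31, adjusted p = 0.0911), FAS (0.66), BAX (0.64) and BBC3 (0.59) did not pass, and ZMAT3 alone of the 10 was below 0 (-0.32). MDM2 passed with no filter (0.94), and BAX with no filter (0.84), without the S34F line (0.91) and without its 8-10 library (0.91), with adjusted p over alternatives from 0.0277 to 0.592 and from 0.0322 to 0.5. Between 2-3 ribosomes and monosomes 0 of the 10 passed, where 2.96% of all genes were called higher and 0.176% lower. An unadjusted p under 0.05 was found for 2 of the 10, against 2777 of all 15945 genes. DESeq2 also called 0 here. The largest difference there was that of GDF15 (0.86 ± 0.36, adjusted p = 0.215), followed by BAX (0.80 ± 0.32, adjusted p = 0.190) and BBC3 (0.78). CDKN1A (0.23), MDM2 (0.08), TP53I3 (0.31), SESN1 (-0.13), FAS (-0.04), ZMAT3 (-0.12) and RRM2B (-0.50) were nearer to or below 0.

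**Figure D2:**
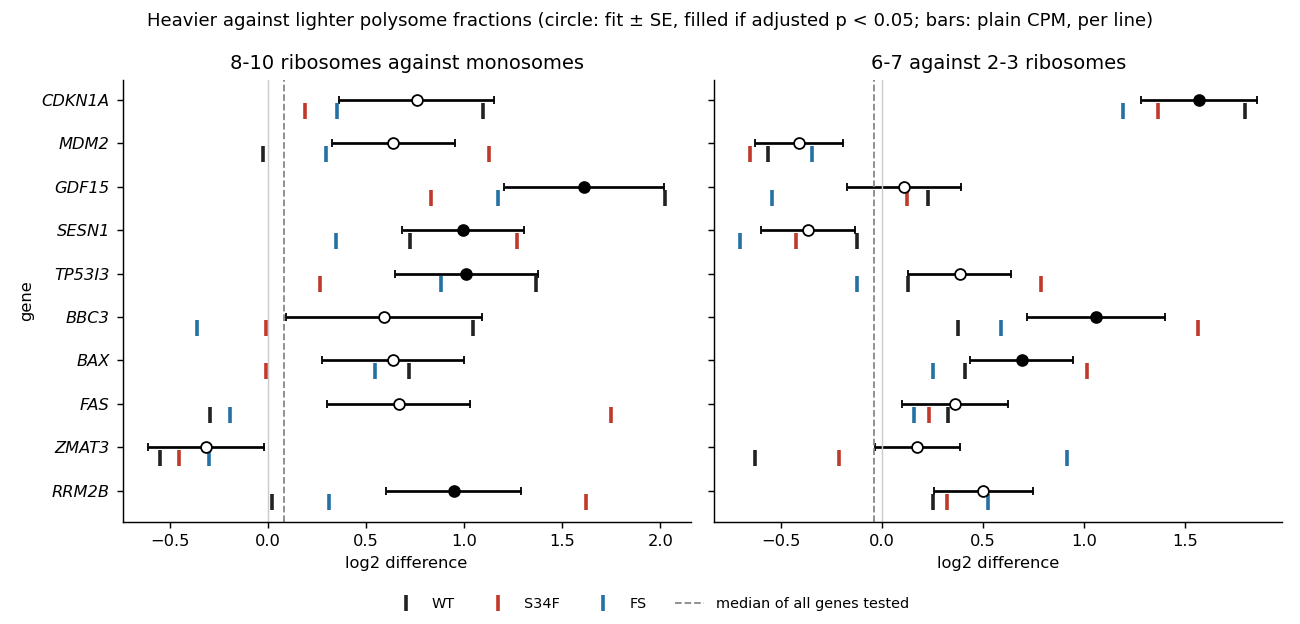
Log2 difference of each of the 10 genes between the 8-10 fraction and monosomes (left) and between 6-7 and 2-3 ribosomes (right). Circles are the fit with its SE, filled where the adjusted p is under 0.05, coloured bars are the 3 lines on plain log2(CPM + 1), and the dashed line is the median of all genes tested. CDKN1A stands at 1.57 on the right and GDF15 at 1.61 on the left.

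A position index, the CPM-weighted mean ribosome number over the 8 fractions with 9 for the pooled one, was computed for the 7 members with at least 500 counts in each gradient. In WT, GDF15 (5.65) and CDKN1A (5.62) were above 94.0% and 93.3% of the 9501 genes with an index, and TP53I3 (5.32) above 82.4%. MDM2 (4.38), RRM2B (4.62) and ZMAT3 (4.05) were in the lower part, above 31.2%, 42.2% and 20.1%. The S34F line held another order, with RRM2B (5.99) above 95.2%, MDM2 (5.16) above 62.7%, CDKN1A (5.14) above 61.7% and GDF15 (4.91) above 48.3%. This order includes the single S34F 8-10 library, weighted 9, which held 64.4 CPM of RRM2B and 1951 of MDM2. The other S34F fractions held at most 20.3 and 935 CPM of these, and the order without the 8-10 library is not given here. FS lay between for MDM2 (4.51), CDKN1A (5.19), GDF15 (5.01) and RRM2B (4.99). BAX had the steadiest index of the 7, at 5.02, 4.98 and 4.89. The median gene had 4.76 in WT, 4.94 in S34F and 4.82 in FS. With 1 gradient per line these orders have no test.

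Of 37 other p53 targets tested, 10 were called higher and 7 lower with 8-10 ribosomes than in monosomes, where 28.3% and 21.6% of all genes were called. These shares are near those of all genes. Their median was 0.28 against 0.08. The largest increases were in the checkpoint protein SFN (14-3-3 sigma, 1.79 ± 0.39), the lysosomal fucosidase FUCA1 (1.78), the growth arrest gene GADD45A (1.51), the DNA damage sensor XPC (1.32) and PHLDA3 (1.28), a repressor of AKT. The largest decreases were in the decoy death receptor TNFRSF10C (-1.77 ± 0.72), EI24 (-1.42), CMBL (-1.38), SPATA18 (-1.37) and SERTAD1 (-1.31). For TNFRSF10C the groups overlapped (edgeR, adjusted p = 0.0431). Its line values on plain log2(CPM + 1) were smaller in WT (-0.349) and S34F (-0.314) than in FS (-1.553). With 6-7 against 2-3 ribosomes 10 were higher and 5 lower, where 20.8% and 12.8% of all genes were called, with a median of 0.19 against -0.04. PHLDA3 (1.48 ± 0.26), NINJ1 (1.39), CDIP1 (1.33), TRIAP1 (1.31) and TP53INP2 (1.10) led the increases, and TRIM22 (-1.51 ± 0.23), CCNG1 (-1.15), POLH (-0.91), CMBL (-0.77) and TIGAR (-0.59) were the 5 that fell. With 2-3 ribosomes against monosomes, RPS27L was the single target that rose (1.36 ± 0.38, edgeR, adjusted p = 0.0470).

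Among 18 regulators of p53, 7 were higher and 1 lower in the 8-10 fraction than in monosomes, and 3 were higher and 4 lower at 6-7 than at 2-3 ribosomes. Over all genes the shares were 28.3% and 21.6% in the first comparison and 20.8% and 12.8% in the second. MDM4, the partner of MDM2 in holding p53 down, fell by 1.05 ± 0.29 in the 8-10 fraction (edgeR, adjusted p = 0.00414) and did not pass at 6-7 (-0.43, adjusted p = 0.103). PPM1D, the phosphatase that switches p53 signalling off, fell by 0.72 ± 0.21 at 6-7 ribosomes (edgeR, adjusted p = 0.0113) and stood at -0.10 in the 8-10 fraction. At 6-7 ribosomes its groups overlapped, and its line values were -1.478 in WT, -0.659 in S34F and -0.082 in FS. TP63, the p53 relative that marks basal epithelium, was called higher in the 8-10 fraction (0.71 ± 0.30, adjusted p = 0.0494) and was at -0.19 at 6-7. In the 8-10 fraction it was above 0 in 2 of 3 lines, and the groups overlapped. The line values there were -0.065 in WT, 1.383 in S34F and 0.391 in FS.

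The 3 mRNAs whose log2 level followed CDKN1A most closely over the 24 polysome libraries were AGAP2-AS1 (Pearson r = 0.96), FXYD3 (0.949) and GJB5 (0.928), among 7778 genes with a mean of at least 20 CPM. AGAP2-AS1 is antisense to AGAP2, so its count may include reads of the other strand. Of the members at this level, BAX had an r of 0.77 with CDKN1A, TP53I3 0.33 and GDF15 0.23, while RRM2B (-0.23), ZMAT3 (-0.43) and MDM2 (-0.52) ran against it. These are descriptions over libraries that share lines and fractions.

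Between lines, MDM2, SESN1, FAS and RRM2B were higher in the FS gradient than in the WT gradient in 8 of 8 fractions. MDM2 ran from 1040.2 to 2418 CPM in FS and from 313 to 848 CPM in WT, so that no FS fraction reached down to a WT one. Its mean log2 difference was 1.39 ± 0.28 (SD over 8 fractions, from 1 library per line and fraction), or 2.63-fold. SESN1 differed by 1.59 ± 0.41, FAS by 1.57 ± 0.31 and RRM2B by 1.6 ± 0.54. FAS ran from 18.7 to 36.7 CPM in FS and from 6.43 to 10.1 CPM in WT, and RRM2B from 24 to 58.8 and from 7.4 to 17.9 CPM. These 4 of 10 were at least 2-fold higher, where 10.3% of all genes were at least 2-fold higher and 3.36% lower. BAX was 1.6-fold higher in 8 of 8 fractions and ZMAT3 1.64-fold in 6 of 8. TP53I3 (1.42-fold) and BBC3 (1.37-fold) were above WT in 7 of 8 fractions, CDKN1A was level (1.05-fold, 5 of 8) and GDF15 was below WT in 8 of 8 fractions (0.627-fold).

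The cytosolic RNA of the same lines did not show all of this. SESN1 and FAS were higher in FS than in WT Cytosol too, by 1.90 and 1.85 log2, at 11.2 against 2.26 CPM and 7.52 against 1.36 CPM. The WT Cytosol values of these 2 rest on 20 and 12 counts. MDM2 stood at 144 and 134 CPM and RRM2B at 6.42 and 6.21 CPM, differences of 0.10 and 0.04. The level of MDM2 in WT also differed between the assays, with 313 to 848 CPM in the gradient. What sets gradient and Cytosol apart was not tested. GDF15 was higher in FS Cytosol, at 95.9 against 37.5 CPM, the reverse of its gradient. More cells with an mRNA and more mRNA per cell cannot be told apart in these bulk libraries.

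In S34F, the members at least 2-fold above WT over the gradient were BBC3 (1.30 ± 0.95 log2, SD over 8 fractions), SESN1 (1.18 ± 0.57) and BAX (1.02 ± 0.54), 3 of 10, where 2.25% of all genes were at least 2-fold higher and 2.28% lower. BBC3 and BAX differed most at 4 to 6 ribosomes. At 5 ribosomes BBC3 stood at 37.4 CPM in S34F against 5.8 in WT and BAX at 229.8 against 79.5, while in the 8-10 fraction the values were 8.59 against 9.82 and 76.1 against 64.1 CPM. With a pseudocount of 5 CPM in place of 1, none of the 3 reached 2-fold. CDKN1A was 1.46-fold above WT over the gradient, in 6 of 8 fractions, with 3922 against 1689 CPM at 6 ribosomes. It was also higher in S34F in each kind of RIP library, at 2305 against 1165 CPM in Cytosol, 2257 against 983 in IgG and 2225 against 1083 in IP. Against FS, CDKN1A was higher in S34F in 8 of 8 fractions (1.38-fold). MDM2 (1.16-fold), RRM2B (1.15-fold), ZMAT3 (1.17-fold), FAS (1.34-fold) and TP53I3 (1.57-fold) stayed under 2-fold against WT, and GDF15 was at 0.67-fold. For RRM2B and FAS the largest S34F excess over the gradient was in the 8-10 library, at 64.4 against 14.8 and 32.9 against 8.06 CPM. RRM2B was above WT in 3 of 8 fractions and FAS in 5 of 8. In Cytosol both were also higher in S34F, at 12.5 against 6.21 and 3.83 against 1.36 CPM, where the WT value of FAS rests on 12 counts. SESN1 (2.49 log2, from 20 counts in WT) and ZMAT3 (1.67) differed most in Cytosol. There TP53I3 stood at 0.48, BBC3 at 0.42, BAX at 0.54, GDF15 at 0.37 and MDM2 at -0.16.

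Of the 37 other p53 targets, 6 were at least 2-fold higher and 0 lower in S34F, where 2.25% and 2.28% of all genes were. Their median was 0.39 log2 against -0.06 over all genes. In FS 8 were at least 2-fold higher and 0 lower, where 10.3% and 3.36% of all genes were. The median there was 0.45 against 0.00. The medians of the 10 were 0.49 in S34F and 0.70 in FS. Both comparisons share the WT libraries, so they are not independent of each other.

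**Figure D3:**
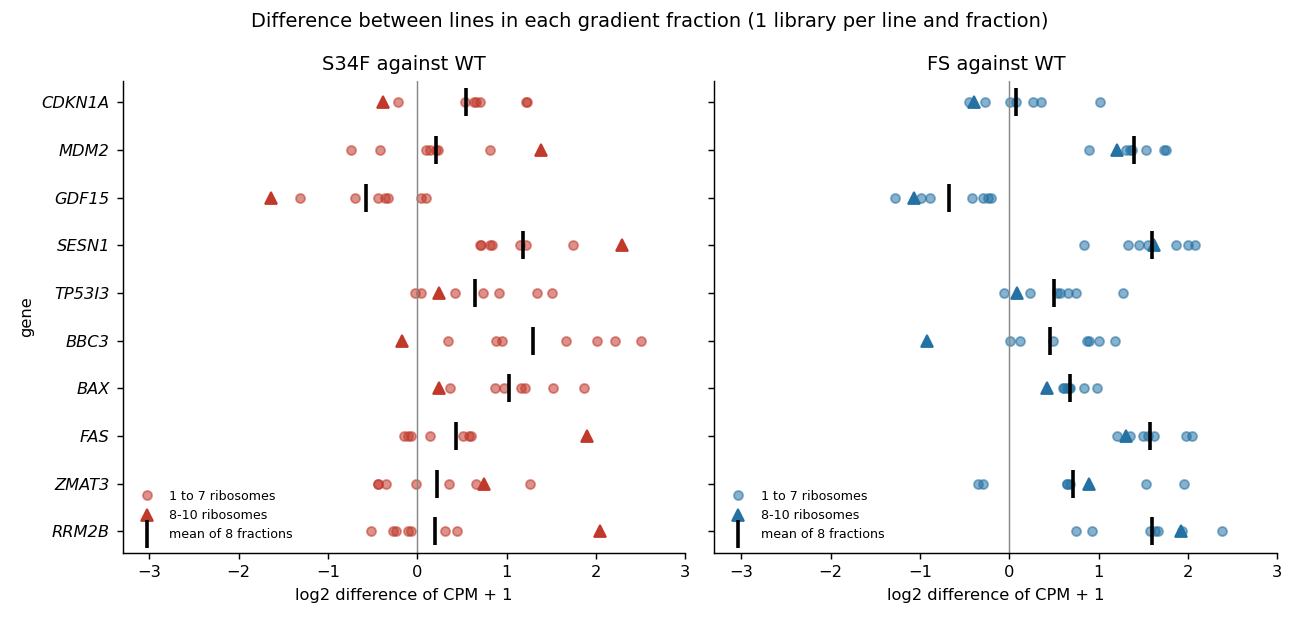
Log2 difference of CPM + 1 between S34F and WT (left) and FS and WT (right) for each of the 10 genes, with 1 point per gradient fraction, a triangle for the 8-10 fraction and a black bar for the mean of 8. In FS all points of MDM2, SESN1, FAS and RRM2B lie above 0, and in S34F the triangle of RRM2B and FAS stands apart from the other fractions.

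In the RIP libraries none of the 10 mRNAs passed the adjusted threshold between U2AF1 and control precipitate. Of 11612 genes tested, 1.34% were called in IP against IgG, 0.534% in IP against Cytosol and 0.68% in IgG against Cytosol, and 0 of the 10 members were called in each by edgeR. DESeq2 called 0 as well. At an unadjusted p under 0.05 the count was 1, 0 and 0 of the 10, against 1497, 851 and 849 of all 11612 genes. The median of the 10 in IP against IgG was 0.03, the same as the 0.03 of all genes. The biological coefficient of variation was 69.8%, so small changes were not detectable here.

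ZMAT3 had the largest difference. IP held 30.4, 45.3 and 66.2 CPM (WT, S34F, FS) and IgG 19.0, 10.7 and 1.35 CPM, the last from 4 counts. Every IP library was above every IgG library. The same held for other genes without a call, among them TP63, GADD45A, CCNG1 and CDKN2A. The difference of ZMAT3 was 2.09 ± 0.88 (edgeR, adjusted p = 0.325), and over 8 alternatives it ran from 1.05 to 3.45, with adjusted p from 0.0894 to 0.762. Cytosol held 7.81, 27.0 and 16.6 CPM, below IP in each line and also without overlap (1.52 ± 0.80, adjusted p = 0.728). MDM2, in contrast, differed by line. IP held 389 CPM in WT, 79.0 in S34F and 266 in FS, against 184, 119 and 218 CPM in IgG, so that IP was above IgG in WT and FS and below it in S34F (0.16 ± 0.32, adjusted p = 0.883). CDKN1A in S34F was almost level, at 2225, 2257 and 2305 CPM in IP, IgG and Cytosol. WT had 1083, 983 and 1165 CPM, while FS had less in IP (1094) than in IgG (1359) or Cytosol (1459). The difference of CDKN1A in IP against IgG was -0.23 ± 0.15 (edgeR, adjusted p = 0.545).

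The remaining members gave no common direction. BAX (0.25 ± 0.29) and TP53I3 (0.47 ± 0.47) were above 0 in 3 of 3 lines, and GDF15 (-0.49 ± 0.39) in 1 of 3. BBC3 (-0.22 ± 0.82) stood at 15.9 CPM in WT IP against 1.97 in WT IgG, and at 15.7 against 47.9 CPM in FS. SESN1, FAS and RRM2B rested on few counts in the precipitates. FAS had 26, 1 and 5 counts in IP and 4, 1 and 2 in IgG, SESN1 56.8, 10 and 2.94 and 8, 18 and 17, and RRM2B 8.92, 19 and 2 and 8, 28 and 26, so a difference in these 3 was not detectable at this depth. Neither the 36 other p53 targets nor the 18 regulators tested had a called gene in any of the 3 RIP comparisons. In IP against IgG 6 and 1 of them had an unadjusted p under 0.05, against 1497 of all 11612 genes. MDM4 (-0.03 ± 0.62), PPM1D (2.36 ± 1.66) and TP63 (0.39 ± 0.27) did not pass.

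**Figure D4:**
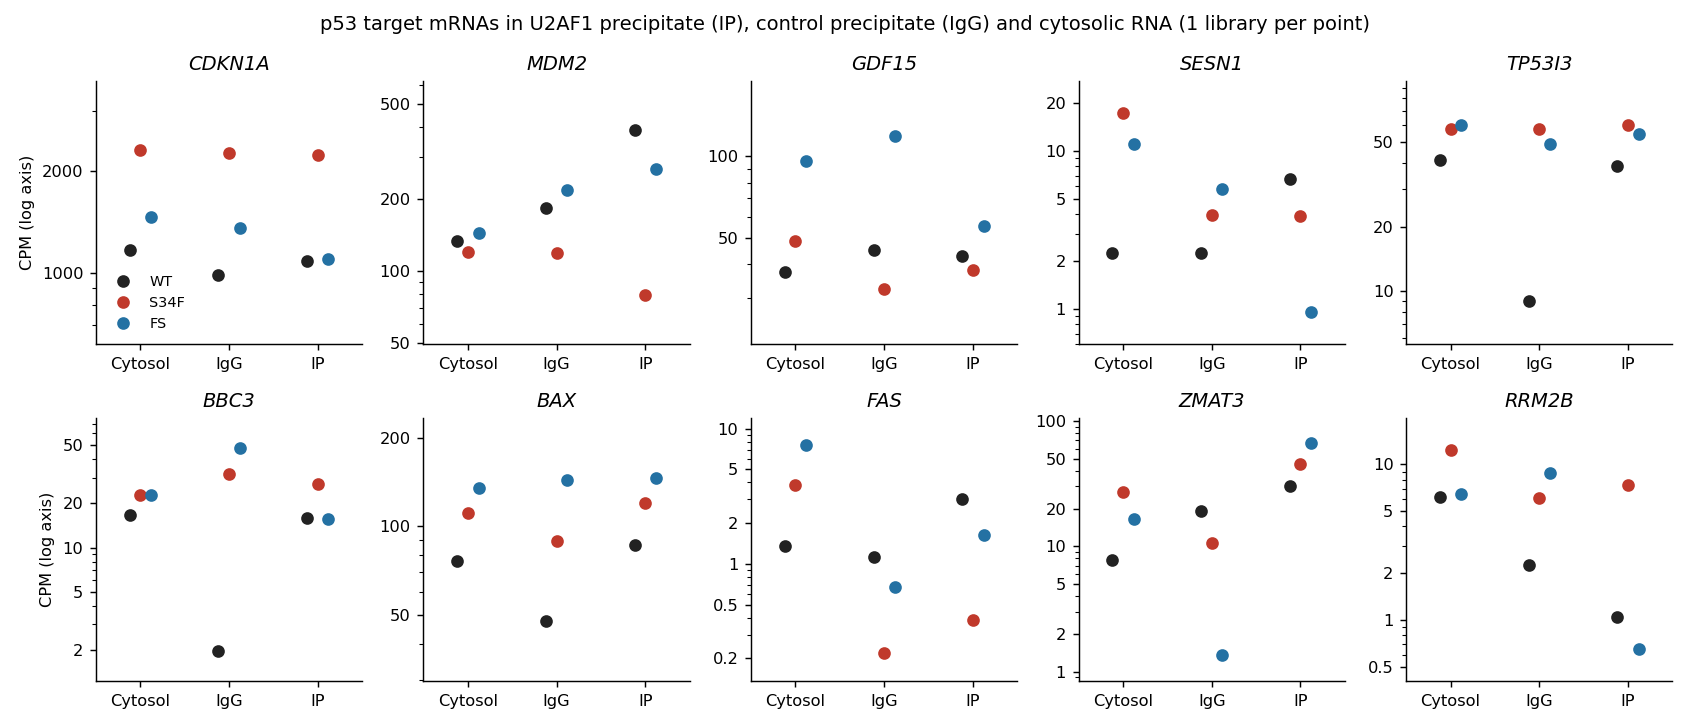
Level of each of the 10 mRNAs in CPM (log axis) in Cytosol, IgG and IP of the WT, S34F and FS lines, with 1 library per point. ZMAT3 is higher in the 3 IP points than in the 3 IgG points, and CDKN1A in S34F stands between 2225 and 2305 CPM in the 3 kinds of library.

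Among the 10 genes, most U2AF1 contact sites in Flp-In-293 cells lay on MDM2. The site lists, in which the authors pooled replicates A and B, held 33 clusters on 8 members in WT cytoplasm, 22 on 4 members in S34F cytoplasm and 63 on 5 members in WT chromatin. Among the 15945 genes of the polysome fit, 42.4% had a cluster in WT cytoplasm, 38.7% in S34F cytoplasm and 51.6% in WT chromatin. MDM2 held 17 of the 33, 16 of the 22 and 47 of the 63. At least as many clusters were found on 90 of 7569, 230 of 6918 and 266 of 9481 genes with a cluster in the same lists. SESN1 had 2, 3 and 8 clusters and ZMAT3 3, 2 and 5. RRM2B had 3, 0 and 1, BAX 2, 0 and 2, FAS 1, 1 and 0. CDKN1A had 4 clusters and BBC3 1, in WT cytoplasm alone. GDF15 and TP53I3 had none in any list. A gene must be transcribed in these cells to be crosslinked, and their mRNA level was not measured here.

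On MDM2 the clusters of WT protein held 307 reads over 503 bases in cytoplasm (18.1 reads per cluster) and 3036 reads over 1659 bases on chromatin (64.6 per cluster). S34F protein in cytoplasm had 162 reads over 459 bases (10.1 per cluster). The lists differ in total reads in clusters, 526075 in WT cytoplasm, 658110 in S34F cytoplasm and 4723555 in WT chromatin. With each list scaled to a total of 1000000 reads, MDM2 had 584 reads in WT cytoplasm, 246 in S34F cytoplasm and 643 in WT chromatin. Without replicates no difference between lists was tested. Chromatin clusters on MDM2 lay 24 in exons, 17 in introns and 6 across an exon-intron border. In cytoplasm these numbers were 8, 7 and 2 for WT protein and 9, 7 and 0 for S34F protein.

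**Figure D5:**
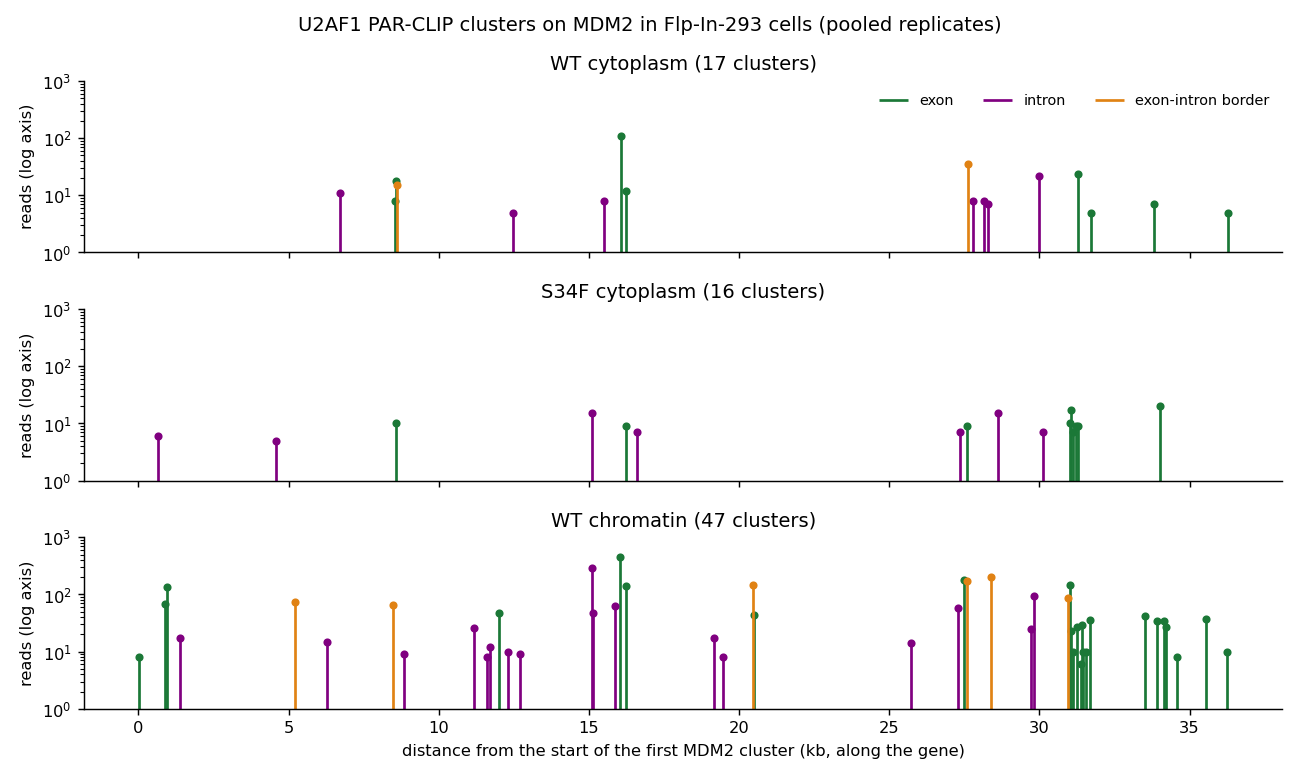
U2AF1 PAR-CLIP clusters along MDM2 in the 3 lists, by distance in kb from the start of the first MDM2 cluster, with the number of reads per cluster on a log axis and the place of the cluster as colour. The 47 chromatin clusters reach 461 reads, and the 16 clusters of S34F protein in cytoplasm stay at 20 reads or fewer.

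U2AF1 is known to bind where a stretch rich in pyrimidines ends in AG before an exon. Of the clusters that cross from an intron into an exon, those shown were picked to be short and to hold a TAG or CAG near their start, so that they illustrate this arrangement and do not measure how common it is. Others were left out, among them an MDM2 chromatin cluster of 88 reads at chr12:69233042-69233083 with neither TAG, CAG nor TTTT. The sequences are given as the lists have them, in the sense of the RNA, 5′ to 3′, with the first TAG or CAG in capitals. The genome build of the coordinates is not given in the sources used here.
MDM2, WT chromatin, chr12:69207317-69207361, plus strand, 74 reads: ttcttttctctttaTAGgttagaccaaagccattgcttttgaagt
MDM2, WT chromatin, chr12:69210579-69210610, plus strand, 66 reads: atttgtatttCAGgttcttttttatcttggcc
SESN1, WT chromatin, chr6:109314078-109314115, minus strand, 215 reads: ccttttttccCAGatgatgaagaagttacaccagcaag
ZMAT3, WT chromatin, chr3:178745586-178745613, minus strand, 9 reads: tctttgatgtCAGatgggctcctttaag
BAX, WT chromatin, chr19:49459436-49459457, plus strand, 23 reads: gttctcctctctcctgCAGgat
FAS, S34F cytoplasm, chr10:90773084-90773104, plus strand, 5 reads: attttttgctttcTAGgaaac
The lists place the BAX cluster from an intron into a 3′ untranslated region and the others from an intron into coding sequence. In the SESN1 cluster there were as many conversion events as reads, 215. Of the 12 chromatin clusters of members across a border, 11 held a TAG or CAG and 6 a run of TTTT, in the sense of the RNA. Over all 17891 border clusters of that list 93.1% held TAG or CAG and 45.8% TTTT, so the members were near the list as a whole.

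Cytoplasmic clusters of WT protein on the members lay mostly in exons, 23 of 33 (69.7%, against 53.3% of all clusters in that list). Of these 23, 2 held TTTT (8.7%, against 16.8% of all exonic clusters) and 6 held a run of GGGG (26.1%, against 13.3%). With clusters this few the shares are a description. The 6 with GGGG lay in 3′ untranslated regions, and each is printed from its first base to at most 30 bases, with the first run of 4 or more G in capitals.
CDKN1A, chr6:36654563-36654586, plus strand, 9 reads: gtGGGGGtgagggtcccatgtggt
CDKN1A, chr6:36654799-36654828, plus strand, 30 reads: ccacgtgggctcatatGGGGctgggagtag
BAX, chr19:49464994-49465023, plus strand, 72 reads: aattattGGGGGGtgtggggaagagtggtc
BBC3, chr19:47724209-47724230, minus strand, 5 reads: ctgggagtGGGGagggatggcc
SESN1, chr6:109308679-109308703, minus strand, 7 reads: atagtctacaaGGGGGaaggtacta
ZMAT3, chr3:178740680-178740709, minus strand, 8 reads: aggcaaaaaaaattGGGGaaggcaaattac
The BAX site was read most, with 19 conversion events in 72 reads. CDKN1A had a further pair of clusters in its 5′ untranslated region, with 13 and 6 reads, and all 4 of its clusters were absent from the S34F list and the chromatin list. Clusters of 10 reads or more numbered 18 of the 33.

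Few sites recurred between lists. Of the 33 clusters of members in WT cytoplasm, 4 (12.1%) overlapped a cluster of S34F cytoplasm by at least 1 base on the same strand, and 3 of the 22 (13.6%) overlapped the other way, all on MDM2. Over all clusters the shares were 10.2% and 9.41%. With WT chromatin, 8 of 33 (24.2%) and 8 of 22 (36.4%) overlapped, against 18.2% and 21.3% of all clusters. Places covered in all 3 lists were 2, both in MDM2 coding sequence. They are shown as the chromatin clusters, with the bases common to the 3 lists in capitals.
MDM2, chr12:69218345-69218369, plus strand: AAGAGCTTCAGGAAGAGAAACcttc
MDM2, chr12:69233363-69233390, plus strand: atttatAGCAGCCAAGAAGATGTGAAAG
The first had 12 reads in WT cytoplasm, 9 in S34F cytoplasm and 139 in WT chromatin, and the second 24, 9 and 27. Both hold a CAG inside an exon.

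A cluster of S34F protein in cytoplasm fell in the first intron of MDM2, where the gene has its p53-responsive promoter. It is 24 bases long, at chr12:69202735-69202758 in the list, with 6 reads and 6 conversion events. Its sequence matched exactly and without gaps inside 2 overlapping RefSeq promoter entries of MDM2, each covering 250 bases before and 50 after a transcription start. This was the single member cluster found in any of the 17 promoter entries of 9 members compared. The entry at chr12:68808767-68809066 (GRCh38.p14, plus strand) is printed with the cluster in capitals.
MDM2 promoter: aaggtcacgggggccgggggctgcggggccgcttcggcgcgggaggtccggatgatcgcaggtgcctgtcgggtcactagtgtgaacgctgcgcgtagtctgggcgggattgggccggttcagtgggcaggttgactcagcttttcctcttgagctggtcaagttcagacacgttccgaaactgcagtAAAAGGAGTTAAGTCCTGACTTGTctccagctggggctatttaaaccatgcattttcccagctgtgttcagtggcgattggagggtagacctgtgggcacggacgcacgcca
The cluster begins 62 bases before the start of that entry's transcript. Its 6 reads are close to the lowest number in the list, 4, and neither list of WT protein had a cluster at this place.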

How the data were processed

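The 10 members, the other gene lists and the tests were chosen with earlier results of these data known. Polysome and RIP values are expected counts per gene symbol deposited by the authors (57.4% and 26.3% of values were not whole), and TopHat is named without a version in the submitters' processing notes. The counting tool, annotation, strand use and genome build are not given in the sources used here. RPKM values of the RIP tables were also deposited by the authors and served for levels between genes. PAR-CLIP lists hold read counts and conversion counts. The T-to-C fraction of each cluster was likewise computed by the authors, from replicates A and B together. The cluster caller is not given in the sources used here, and each cluster had at least 4 reads and 2 conversion positions.

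Symbols listed more than once were kept once (45 polysome and 119 RIP entries dropped, and 28 polysome entries with a date or no name left out). Counts were rounded to whole numbers and fitted with edgeR 4.0.16 (limma 3.58.1, R 4.3.3) by filterByExpr, TMM and the quasi-likelihood test, with the line as a block, over all 9 RIP libraries (11612 genes) or all 24 polysome libraries (15945 genes), and a gene was called where p after Benjamini-Hochberg adjustment was below 0.05. The SE is the log2 difference over the root of its F value. The labels do not say that libraries are separate cultures, so p-values reflect the spread between libraries alone, in which differences between genotypes are part of the residual. The pairing comes from the shared line. Between libraries of one line, deviations from the group means had a median correlation of 0.0643 in RIP (0.0237 to 0.133) and of 0.346 for polysomes (-0.251 to 0.765), where 73 of 84 pairs exceeded 0.1. The scripts were tested on simulated data with equal spread in both assays and no differences between lines. That spread was below the one of the RIP libraries (biological coefficient of variation 69.8%), so the test does not cover the RIP fit at its real spread. CPM is a count scaled to a library total of 1000000, and line differences use log2(CPM + 1). A count of 0 allows up to 3 counts, 0.224 to 1.23 CPM in polysome and 0.101 to 1.16 CPM in RIP libraries, which covers counting error only. Named genes were the 10 members, MDM4, PPM1D, TP63 and U2AF1 (1 further gene of the rule is not reported here), the up to 5 largest called changes of other p53 targets per direction, and the 3 mRNAs most correlated with CDKN1A. The other targets came from a list of 38, of which 37 were in the polysome table. Alternatives were RLE size factors, DESeq2 1.42.0, no filter, no block, each line left out, the compared kinds alone, other pseudocounts and stricter cluster thresholds. Promoter sequences are from RefSeq (GRCh38.p14), found for 9 members.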

Additional observations from a re-analysis of the deposited data

Results flagged for a closer look

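In the RIP libraries some members moved at least 2-fold in opposite directions in different lines. With 1 library per line these differences were not tested. SESN1 in IP against IgG stood at 1.23 in WT and -1.78 in FS (log2 of CPM + 1), and in IP against Cytosol at 1.23 in WT, -1.91 in S34F and -2.63 in FS. BBC3 in IP against IgG stood at 2.51 in WT and -1.56 in FS, and in IgG against Cytosol at -2.58 in WT and 1.04 in FS. ZMAT3 in IgG against Cytosol stood at 1.19 in WT, -1.26 in S34F and -2.90 in FS. The lowest counts behind them were 2.94 for SESN1 (FS IP), 7 for BBC3 (WT IgG) and 4 for ZMAT3 (FS IgG), and their part in the differences was not tested.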

How the results depend on the processing

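The number of the 10 members called was 0 in the 3 RIP comparisons under every alternative run. For the 8-10 fraction against monosomes it was 4, became 7 with no filter on low counts and 1 without the replicate block, and ran from 1 to 3 with each line left out. For 6-7 against 2-3 ribosomes it was 3, became 1 without the replicate block, 4 by DESeq2 and without the S34F 8-10 library, and ran from 1 to 3 with each line left out. For 2-3 ribosomes against monosomes it was 0 and became 1 (GDF15) with the compared kinds alone. Members at least 2-fold apart between S34F and WT went from 3 to 0 with a pseudocount of 5 CPM. The median ribosome index moved from 5.097 to 5.197 on TMM-scaled CPM and to 4.174 without the 8-10 fraction, a fall that follows from dropping the highest ribosome number. Member clusters of at least 10 reads numbered 18 of 33 in WT cytoplasm and 9 of 22 in S34F cytoplasm, and those in exons 13 of 22 in S34F cytoplasm and 31 of 63 in WT chromatin.

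Called genes over the whole table ranged more widely: 17 to 636 around 156 (IP against IgG), 36 to 153 around 62 (IP against Cytosol), 60 to 223 around 79 (IgG against Cytosol), 0 to 1094 around 500 (2-3 ribosomes against monosomes), 5248 to 8500 around 7958 (8-10 against monosomes) and 2385 to 6131 around 5350 (6-7 against 2-3). The causes were not tested.

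The sign changed under some alternative in the following values, none of which was called. With each line left out, log2 ranges in IP against IgG were -0.238 to 0.457 (MDM2), -1.347 to 0.837 (SESN1), -0.028 to 0.763 (TP53I3) and -1.038 to 0.801 (BBC3), and in IP against Cytosol -0.214 to 0.004 (BBC3). In IgG against Cytosol they were -0.015 to 0.538 (GDF15), -0.797 to 0.940 (BBC3), -0.347 to 0.022 (BAX), -1.937 to 0.155 (ZMAT3) and -1.142 to 0.064 (RRM2B). In the 8-10 fraction they were -0.176 to 0.931 (BBC3) and -0.013 to 1.001 (FAS). At 2-3 ribosomes they were -0.076 to 0.193 (MDM2), -0.234 to 0.110 (SESN1), -0.177 to 0.221 (FAS) and -0.252 to 0.030 (ZMAT3), and at 6-7 -0.149 to 0.375 (GDF15), -0.013 to 0.618 (TP53I3) and -0.259 to 0.410 (ZMAT3). With the compared kinds alone BBC3 stood at 0.067 in IP against IgG and -0.118 in IgG against Cytosol. Without the S34F 8-10 library FAS stood at -0.001 in the 8-10 fraction and MDM2 at -0.004 at 2-3 ribosomes. FAS at 2-3 ribosomes stood at 0.036 with no filter and 0.082 without the replicate block.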
